A study of Mus musculus with 6 samples.

Results

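Dlx1, Dlx2, Dlx5, Dlx6 and Gsx2 are homeobox transcription factor genes of the ventral telencephalon. They were taken by symbol from the count table, where all 5 were found among 34866 rows, and all 5 were among the 15216 genes with enough counts to be tested. The table comes from RNA of mouse forebrain at E14.5 (embryonic day). Of its 6 libraries, 3 are labelled mutant, with a Sap130 f/- genotype (1 floxed allele and 1 marked as lost) and Emx1-cre. The other 3 are littermate controls with a Sap130 f/+ genotype (1 floxed and 1 wild-type allele) and Emx1-cre, so both groups carry the Cre and 1 floxed allele.

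The protein made from Sap130 belongs to Sin3, a co-repressor that brings histone deacetylases to genes, and Emx1-cre deletes floxed sequence in cells derived from the dorsal telencephalon. Inside that lineage a control keeps 1 working Sap130 allele and a mutant keeps none. Outside it, where the Dlx genes and Gsx2 are mainly transcribed, a control keeps 2 working alleles and a mutant keeps 1. The groups thus differ in Sap130 dose in both territories, and forebrain libraries pool them. Totals ranged from 20775583 to 25999874 estimated counts per library. Sample titles begin with SPF-539 (1 library of each group, replicate 1) or SPF-552 (2 of each group). Sap130 itself was higher in the mutant-labelled libraries, at 137.7, 124.1 and 124.1 CPM (counts scaled to a common library size), than in controls, at 82.8, 84.9 and 84.4 CPM. This goes against a loss of the gene's transcript, so all directions here are those of the libraries as labelled.

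In the ventral telencephalon, Gsx2 is made by dividing progenitors of the lateral ganglionic eminence, where it gives the zone its identity and opposes the dorsal programme. Dlx1 and Dlx2 follow in the subventricular zone, and Dlx5 and Dlx6 follow them as cells leave the cycle. The Dlx factors act in large part redundantly. They drive the making of GABAergic neurons, the striatal projection neurons and the interneurons that migrate into the cortex. The same genes are also used in the prethalamus and hypothalamus, and in the facial skeleton outside the brain.

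The 4 Dlx genes lie as 2 convergent pairs. Dlx1 (ENSMUSG00000041911) spans 71528113 to 71533981 on the plus strand of chromosome 2 in GRCm38, and Dlx2 (ENSMUSG00000023391) spans 71543408 to 71546754 on the minus strand, with 9426 bases between them. Dlx6 (ENSMUSG00000029754) spans 6863334 to 6868568 on the plus strand of chromosome 6, and Dlx5 (ENSMUSG00000029755) spans 6877805 to 6882085 on the minus strand, with 9236 bases between them. Gsx2 (ENSMUSG00000035946) stands apart from them, at 75075601 to 75077893 on the plus strand of chromosome 5. The library kit named in the labels marks no strand, so antisense transcripts are counted with a gene where exons overlap. In GENCODE M21 the antisense gene Dlx1as shares 335 exon bases with Dlx1, 6.21% of its exon length, and Dlx6os1 and Dlx6os2 share 104 bases with Dlx6, or 4.38%. Dlx2, Dlx5 and Gsx2 share no exon base with another annotated gene. The antisense genes have no row in the table used here.

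**Figure D1:**
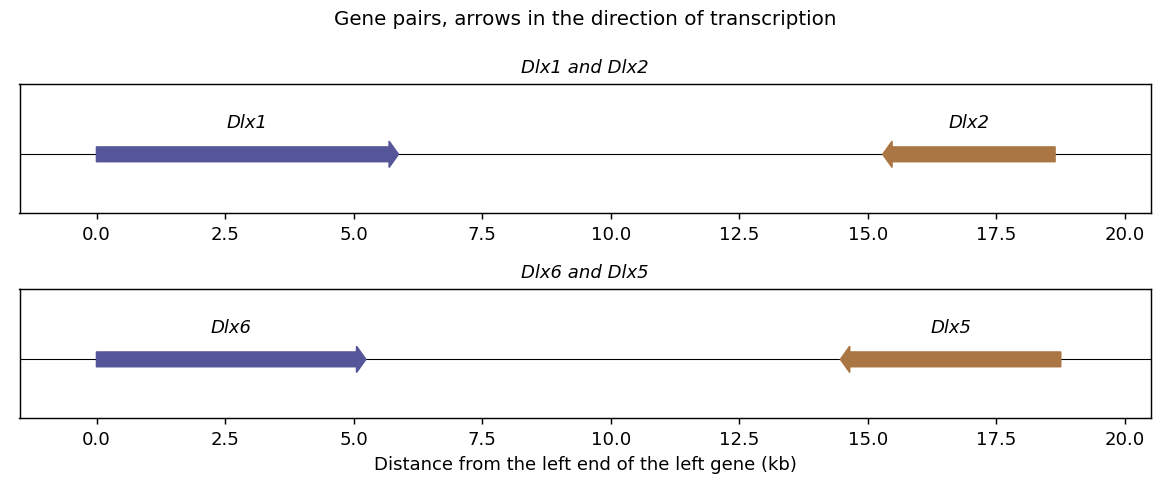
Map to scale of the Dlx1 and Dlx2 pair and the Dlx6 and Dlx5 pair, with distance in kilobases from the left end of the left gene on the x axis. Arrows point in the direction of transcription, and each pair converges on an interval of 9426 or 9236 bases.

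All these genes carry a homeobox, the only part compared base by base here. Exact runs shared anywhere in their transcripts, which bear on reads of one counted for another, follow below. The 60 bases of homeobox codons 41 to 60, which hold the recognition helix, are shown from the GENCODE M21 transcripts of GRCm38, with capitals at bases that differ from Dlx1.
Dlx1: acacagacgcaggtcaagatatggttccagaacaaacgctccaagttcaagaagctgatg
Dlx2: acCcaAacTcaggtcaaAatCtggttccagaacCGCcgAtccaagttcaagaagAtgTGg
Dlx5: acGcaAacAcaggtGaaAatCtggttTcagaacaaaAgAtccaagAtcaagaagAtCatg
Dlx6: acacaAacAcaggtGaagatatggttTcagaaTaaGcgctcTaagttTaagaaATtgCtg
Gsx2: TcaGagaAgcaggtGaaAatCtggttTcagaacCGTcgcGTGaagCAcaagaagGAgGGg
Over the whole homeobox of 180 bases, Dlx1 was 73.9% identical to Dlx2, 76.1% to Dlx5 and 76.7% to Dlx6, and Dlx5 was 73.3% identical to Dlx6. Gsx2 was 51.7% to 55% identical to the 4 Dlx genes. No pair of members shared an exact run longer than 24 bases in any of their annotated transcripts, the longest being between Dlx5 and Gsx2.

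Promoter windows were found for 3 of the members, Dlx1, Dlx2 and Gsx2. Their RefSeq promoter windows (250 bases before to 50 after the start site, GRCm38.p6) are shown 5′ to 3′ on the gene's strand. Capitals mark matches on either strand to 5 motifs. The search covered TAATTA, a core that many homeodomain proteins bind. It also covered a pair of E-boxes, which bHLH proteins bind, spelled CAGCTG for the proneural kind and CACGTG for the other. The last ones were TATAAA, the TATA box, and the CCAAT box of general promoters. No match overlapped another.
Dlx1, chr2:71529195-71529494, plus strand: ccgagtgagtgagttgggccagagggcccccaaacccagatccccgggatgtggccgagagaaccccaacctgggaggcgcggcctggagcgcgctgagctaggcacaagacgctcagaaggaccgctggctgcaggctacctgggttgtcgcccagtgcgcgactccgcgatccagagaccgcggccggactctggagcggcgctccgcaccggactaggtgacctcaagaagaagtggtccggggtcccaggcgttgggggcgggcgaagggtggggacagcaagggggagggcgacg
Dlx2, chr2:71546705-71547004, minus strand: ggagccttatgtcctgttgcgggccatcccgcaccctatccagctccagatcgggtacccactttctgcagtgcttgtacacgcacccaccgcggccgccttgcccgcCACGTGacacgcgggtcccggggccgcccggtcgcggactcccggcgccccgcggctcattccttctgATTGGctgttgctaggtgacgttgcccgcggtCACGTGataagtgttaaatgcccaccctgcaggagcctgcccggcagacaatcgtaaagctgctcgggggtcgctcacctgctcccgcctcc
Gsx2, chr5:75075351-75075650, plus strand: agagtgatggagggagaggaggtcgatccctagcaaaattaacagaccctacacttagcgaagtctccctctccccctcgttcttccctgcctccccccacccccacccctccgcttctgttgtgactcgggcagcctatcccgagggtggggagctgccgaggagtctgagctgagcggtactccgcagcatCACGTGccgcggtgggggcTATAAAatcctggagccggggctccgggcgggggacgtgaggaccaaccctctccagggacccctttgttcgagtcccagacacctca
The 3 windows had 69.3%, 66.3% and 63% G and C. The Dlx2 window held CACGTG at positions -142 and -42 from the start site, and the Gsx2 window held it at -57. This motif is in 7.17% of the 32544 distinct mouse promoter windows of this length. TATAAA, found at -38 in the Gsx2 window, is in 13.6% of them, and CCAAT, found once in the Dlx2 window, in 37.4%. TAATTA (5.29%) and CAGCTG (16.4%) matched none of these 3 windows. The Dlx1 window, which matched none of the 5 motifs, lies within the GENCODE span of Dlx1, since RefSeq places the start downstream. Dlx5 and Dlx6 were not matched in the promoter table.

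All 5 members were higher on average in the mutant-labelled libraries, by 7.6% to 36.2% of the control mean, but none passed a false discovery rate (FDR) of 0.05. Over all genes 0.138% passed in either direction, 21 of 15216, with Benjamini-Hochberg adjustment over all genes of an edgeR quasi-likelihood fit. A log2 fold change above 0 was found for 49.9% of all genes. The members had a median log2 fold change of 0.26, against a median of -0.000306 over all genes. In these bulk libraries more cells of a type and more RNA per cell cannot be told apart.

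**Figure D2:**
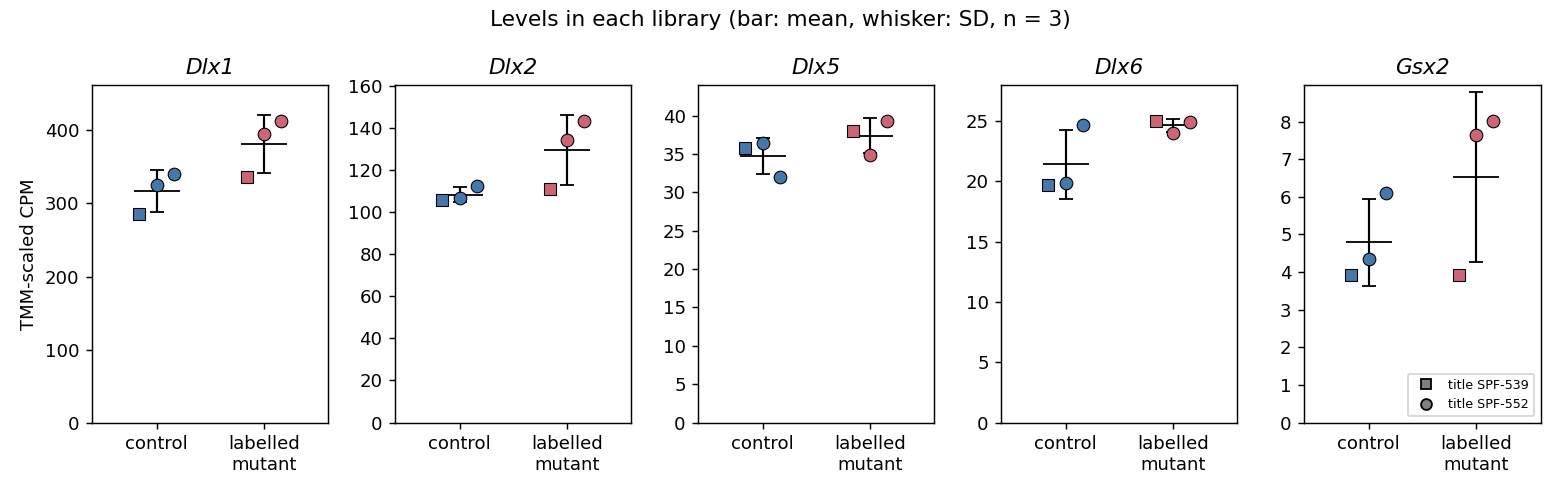
TMM-scaled CPM of each gene (y axis, from 0) in the 3 controls and the 3 mutant-labelled libraries, with the mean as a bar and the SD as a whisker. Squares are SPF-539 and circles SPF-552. For each of the 5 genes at least 1 library labelled mutant lies within the range of the controls or below it.

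Levels between genes were compared per length, as mean CPM per kilobase of annotated exon in controls. Dlx1 was highest at 58.8 ± 5.28, followed by Dlx2 at 37.9 ± 1.26 (SD, n = 3). Dlx5 stood at 15.4 ± 1.05 and Dlx6 at 9.02 ± 1.2, and Gsx2, the progenitor factor, was lowest at 2.88 ± 0.695 CPM per kilobase (SD, n = 3). No neighbours in this order overlapped in any control, with 52.9 to 63.2 for Dlx1 against 37.0 to 39.3 for Dlx2, 14.1 to 16.1 for Dlx5 against 8.30 to 10.4 for Dlx6, and 2.35 to 3.66 for Gsx2. The order was the same in the mutant-labelled libraries, at 70.7, 45.3, 16.5, 10.4 and 3.92 CPM per kilobase. Over the longest coding transcript in place of all exons the control values were 77.2, 43.8, 24.4, 9.66 and 2.88, again in this order.

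Dlx1, which with Dlx2 starts the GABAergic programme, stood at 285.6, 325.5 and 340.8 CPM in control replicates 1 to 3 and at 336.2, 395.8 and 412.8 CPM in mutant replicates 1 to 3. Both SPF-552 mutant-labelled libraries lay above every control, while the SPF-539 one lay just below control replicate 3. This gave a log2 fold change of 0.27 (standard error 0.099, 95% interval 0.05 to 0.48). The edgeR quasi-likelihood p was 0.0199 before and 0.403 after adjustment.

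Dlx2, its neighbour on chromosome 2, showed the same pattern. It stood at 105.5, 106.9 and 112.3 CPM in controls and at 110.8, 134.2 and 143.2 CPM in the mutant-labelled libraries. Mutant replicate 1 again lay within the range of the controls, and the other 2 lay above it. This gave a log2 fold change of 0.26 (standard error 0.096, 95% interval 0.05 to 0.47). The edgeR quasi-likelihood p was 0.0208 before and 0.405 after adjustment. Dlx1 and Dlx2 were the members with an unadjusted p under 0.05 in the higher direction, which 5.22% of all genes also had.

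Dlx5, which acts later in the same cells, stood at 35.8, 36.4 and 32.0 CPM in controls and at 38.0, 34.8 and 39.3 CPM in the mutant-labelled libraries. The groups overlapped, since mutant replicate 2 was lower than control replicates 1 and 2. Its log2 fold change was the smallest of the 5 at 0.11, with a 95% interval of -0.11 to 0.32 (edgeR quasi-likelihood adjusted p = 0.785).

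Dlx6, paired with Dlx5, stood at 19.7, 19.8 and 24.7 CPM in controls and at 25.0, 24.0 and 24.9 CPM in the mutant-labelled libraries. Control replicate 3 alone reached the level of the mutant-labelled libraries, which differed little among themselves. The log2 fold change was 0.20, with a 95% interval of -0.05 to 0.46 (edgeR quasi-likelihood adjusted p = 0.639).

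Gsx2 had the largest fold change and the widest interval. It stood at 3.92, 4.34 and 6.10 CPM in controls and at 3.92, 7.64 and 8.01 CPM in the mutant-labelled libraries, from 95 to 177 estimated counts. Mutant replicate 1 was as low as the lowest control, and the other 2 were above every control. The log2 fold change was 0.44, with a 95% interval of -0.15 to 1.03 (edgeR quasi-likelihood adjusted p = 0.665). The interval includes both no change and a change of 2.05-fold.

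No member separated the 3 mutant-labelled libraries from the 3 controls without overlap, as 8.17% of all genes did in the higher direction. Exact two-sided permutation tests on log2 CPM gave p = 0.2 for Dlx1, Dlx2 and Dlx6, 0.3 for Dlx5 and 0.4 for Gsx2, where 3 libraries against 3 allow no p below 0.1.

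The remaining genes of the family were close to absent. Dlx3, known from skin, placenta and the facial skeleton, had 0 to 4 estimated counts per library, and Dlx4 had 0 in each of the 6, which allows up to 0.117 to 0.143 CPM (3 counts per library, for counting error only). Neither could be tested.

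The members' differences were also read within each title number. In SPF-539, mutant replicate 1 exceeded control replicate 1 by a log2 ratio of 0.24 for Dlx1, 0.07 for Dlx2, 0.09 for Dlx5 and 0.34 for Dlx6, and Gsx2 was level (-0.001). In SPF-552, the mean log2 CPM differed by 0.28 for Dlx1, 0.34 for Dlx2, 0.12 for Dlx5, 0.14 for Dlx6 and 0.60 for Gsx2. For Dlx1 and Dlx2 every library labelled mutant lay above every control of its own title number, as it did for 12.5% of all genes. Dlx5, Dlx6 and Gsx2 did not have this.

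With the title number as a block no member passed either. The edgeR quasi-likelihood adjusted p was 0.109 for Dlx1 and 0.183 for Dlx2, and 0.762% of all genes passed in that fit. In the 4 SPF-552 libraries alone Dlx1 and Dlx2 passed, with log2 fold changes of 0.28 and 0.34 (edgeR quasi-likelihood adjusted p = 0.00879 and 0.00478, 2 against 2), and 1.56% of genes passed there in the higher direction. Without mutant replicate 1 they also passed, at 0.35 and 0.36 (edgeR quasi-likelihood adjusted p = 0.0314 and 0.0106). In that fit 330 of 15446 genes passed, 110 of them in the higher direction. With mutant replicate 1 in the fit they did not pass in any fit that left out another library.

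**Figure D3:**
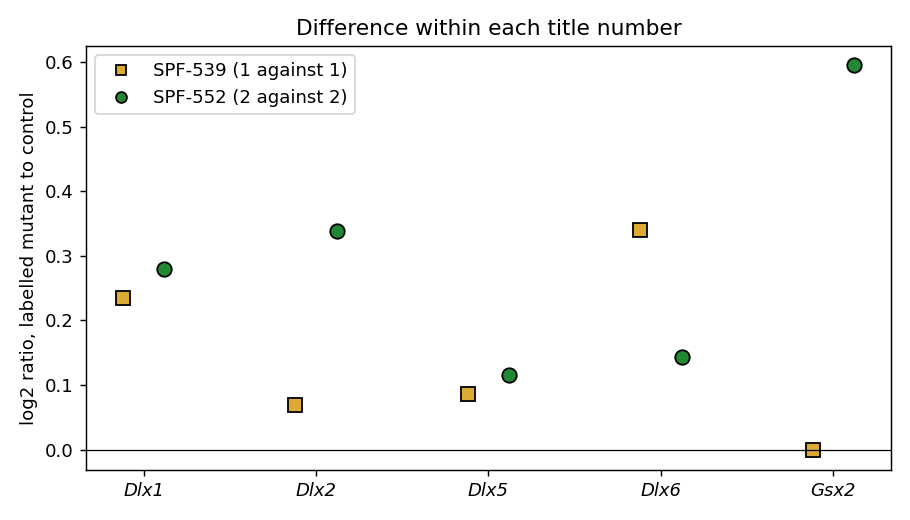
log2 ratio of mutant-labelled libraries to controls for each gene (y axis), within SPF-539 (squares, 1 library against 1) and SPF-552 (circles, means of 2 against 2). Dlx1 and Dlx5 are close in both, Dlx2 and Gsx2 are higher in SPF-552 and Dlx6 is higher in SPF-539, with no test of the difference.

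Ratios of 2 genes within a library do not depend on scaling between libraries, and they set early factors beside late ones. Dlx1 over Dlx2 was nearly constant, with a mean log2 ratio of estimated counts of 1.55 ± 0.10 in controls and 1.56 ± 0.04 in the mutant-labelled libraries (SD, n = 3). Gsx2 over Dlx2 was -4.52 ± 0.29 and -4.37 ± 0.39, and it was lowest in the SPF-539 libraries, at -4.74 and -4.81. Dlx5 over Dlx2, the later factor against the earlier one, was -1.64 ± 0.15 and -1.78 ± 0.21. Its values were -1.94 and -1.86 in mutant replicates 2 and 3 and -1.56, -1.55 and -1.81 in controls.

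Dlx6 over Dlx5 was -0.70 ± 0.28 in controls and -0.60 ± 0.06 in the mutant-labelled libraries, with -0.37 in control replicate 3 alone above the others. Gad2, which encodes a GABA-synthesizing enzyme, had a log2 ratio to Dlx2 of -0.07 ± 0.22 in controls and -0.05 ± 0.22 in the mutant-labelled libraries. These close means hold opposite differences, from -0.33 to 0.21 in SPF-539 and from 0.06 and 0.05 to -0.21 and -0.14 in SPF-552. Every one of the 5 ratios overlapped between the groups, with exact two-sided permutation p of 0.4 to 1 and 1 after adjustment over the 5 ratios. With 3 libraries against 3 these tests could not pass 0.05, so they do not show that the ratios are alike.

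**Figure D4:**
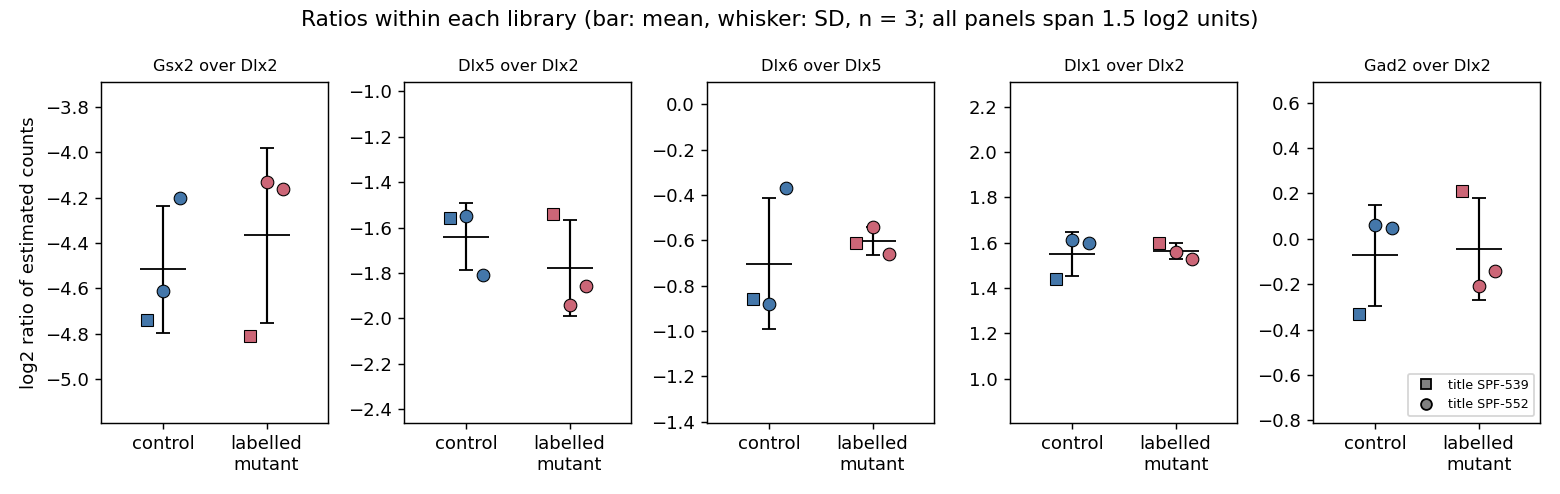
log2 ratio of estimated counts of the 2 named genes within each library (y axis, 1.5 log2 units in every panel) for controls and mutant-labelled libraries, with mean and SD as bar and whisker. Squares are SPF-539 and circles SPF-552. The groups overlap in all 5 panels, and Dlx1 over Dlx2 varies least.

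Genes that share the work of ventral identity with the members lay mostly higher too. Of 18 such partners tested, none passed over all genes, 15 had a log2 fold change above 0 and the median was 0.27, against -0.000306 over all genes. Ptch1, the Sonic hedgehog receptor, stood at 78.8 ± 3.69 CPM in controls against 104.9 ± 9.36 CPM in the mutant-labelled libraries (SD, n = 3), with a log2 fold change of 0.41 (edgeR quasi-likelihood adjusted p = 0.109). Vax1, a homeobox factor of the ventral and preoptic forebrain, stood at 12.2 ± 0.284 and 17.2 ± 0.508 CPM, with 0.50 (edgeR quasi-likelihood adjusted p = 0.139). Sp8 and Sp9, zinc-finger factors of the eminences, had 0.35 each.

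Among these partners Ptch1 and Sp9 passed with the title number as a block (edgeR quasi-likelihood adjusted p = 0.0384 and 0.0402). Gsx1, the close relative of Gsx2, had a log2 fold change of 0.45 at a mean of 3.07 CPM in controls.

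GABAergic and migrating interneuron genes that act downstream of the Dlx factors were described next, with 13 of the 14 listed genes having a row. None passed over all genes, 9 of 13 had a log2 fold change above 0 and the median was 0.18. Erbb4, the neuregulin receptor of migrating interneurons, stood at 72.9 ± 6.76 and 98.7 ± 5.12 CPM, with a log2 fold change of 0.44 (edgeR quasi-likelihood adjusted p = 0.10). It passed with the title number as a block (edgeR quasi-likelihood adjusted p = 0.0282).

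Slc32a1, the vesicular GABA transporter, had a log2 fold change of 0.27. Prox1, which is also on the list of thalamus markers below, had 0.32. The enzymes Gad1 and Gad2 had 0.23 and 0.26. In 8 of these 13 genes the mutant-labelled libraries lay above the controls without overlap, a pattern that no Dlx gene had and 8.17% of all genes had. The receptor genes Cxcr4 and Ackr3, through which interneurons follow Cxcl12, had -0.09 and 0.08.

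**Figure D5:**
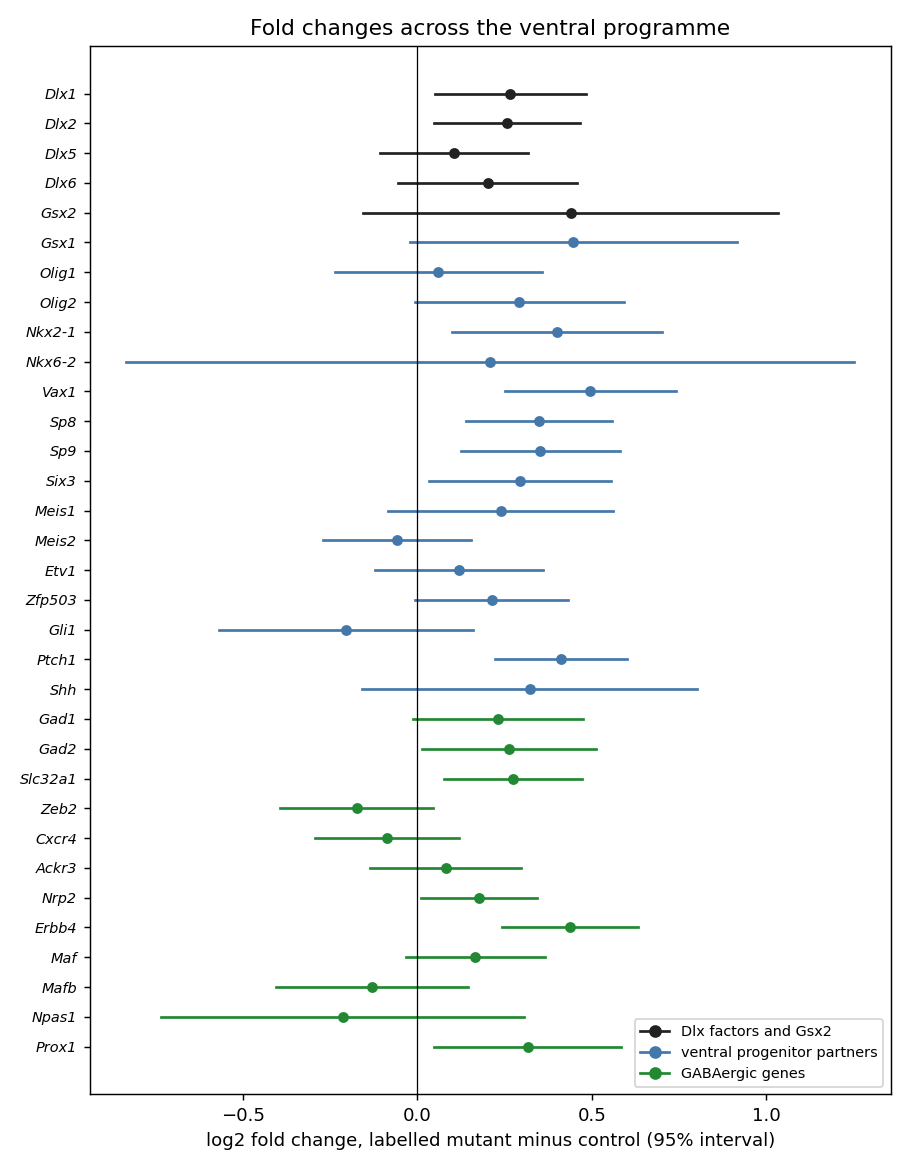
log2 fold change (x axis, mutant-labelled libraries minus controls) with its 95% interval from the edgeR fit, for the 5 members, 16 of the 18 tested ventral progenitor partners and 12 of the 13 GABAergic genes with a row. Points lie mostly to the right of 0 in all 3 sets, no gene shown passed an FDR of 0.05, and Gsx2 has a wider interval than the 4 Dlx genes.

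A short list of genes that Dlx factors are known or proposed to hold down moved both ways. Of 7 tested none passed over all genes, with 4 above 0 and 3 below. The 3 below were the excitatory lineage factors Neurod1 (log2 fold change -0.56, edgeR quasi-likelihood adjusted p = 0.0505), Neurog2 (-0.31) and Neurog1 (-0.52). Neurod1 passed with the title number as a block (edgeR quasi-likelihood adjusted p = 0.0184). Ebf3 had 0.70, Otp 0.29, Olig2 0.29 and Pak3, a kinase of neurite growth, 0.18.

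Of 12 dorsal progenitor factors, Eomes fell over all genes (-0.65, edgeR quasi-likelihood adjusted p = 0.0472), 6 lay above 0 and 6 below, and the median was 0.00. When each of the 6 libraries was dropped in turn, Eomes passed without mutant replicate 1 and failed in the other 5 fits (highest edgeR quasi-likelihood adjusted p = 0.281). Its log2 fold change was -0.80 to -0.57 over all 6 fits. The summed level of this list was 949 to 997 CPM in controls and 796 to 932 CPM in the mutant-labelled libraries. The groups do not overlap in this sum only with Eomes in it: without Eomes, a choice made after the values were seen, it was 771 to 811 CPM in controls and 659, 826 and 832 CPM in mutant replicates 1 to 3. Tfap2c had -0.56 and Dmrta1 had 0.64. Emx1, the gene whose driver was used, had -0.24 and Pax6, which Gsx2 opposes, had 0.22, neither past the threshold.

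Markers of other tissues that use Dlx genes, or border on those that do, were read beside the members. The summed level of 12 prethalamus and hypothalamus markers was 134 to 153 CPM in controls and 144, 172 and 192 CPM in mutant replicates 1 to 3. This sum was within the control range in mutant replicate 1 and above it in the other 2. Within SPF-539 it was lower in mutant replicate 1 than in control replicate 1 (144.1 against 152.5 CPM), whereas Dlx2 was higher (110.8 against 105.5 CPM). Of the 12, 10 had a log2 fold change above 0 and none passed, with Sim1 at 0.61 (edgeR quasi-likelihood adjusted p = 0.167) and Nkx2-2 at 0.53. Otp, of neuroendocrine hypothalamic cells, had 0.29 and Nr5a1, of the ventromedial hypothalamus, had 0.56. The 10 thalamus markers summed to 479 to 499 CPM in controls and 606 to 662 CPM in the mutant-labelled libraries, and 9 of 10 lay above 0 with none past the threshold. Tcf7l2 had 0.39, Foxp2 0.35 and Irx5 0.82. No marker of these lists was at 0 in all libraries. Their part in the members' differences was not tested.

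Medial eminence markers, 8 in all, summed to 591 to 651 CPM in controls and 706 to 770 CPM in the mutant-labelled libraries, with 7 of 8 above 0 and none past the threshold. Nkx2-1, the selector of that zone, had a log2 fold change of 0.40 and Lhx6, its target in migrating interneurons, had 0.20. Gbx2 and Zic1, which are also made in the thalamus and septum, had 0.41 and 0.23, and together they made up 63.4% to 68% of the sum. Without both, a choice made after the values were seen, the groups overlapped, at 215 to 235 CPM in controls and 234 to 276 CPM in the mutant-labelled libraries. With only Zic1, the highest gene of the list, left out they stayed apart, at 240 to 257 CPM and 259 to 312 CPM. The 12 lateral eminence and striatal markers summed to 308 to 335 CPM and 334 to 383 CPM, with 6 above and 6 below 0 and none past the threshold. With Foxp1, the highest gene of that list, left out the groups did not overlap, at 207 to 229 CPM and 235 to 243 CPM. That choice too was made after the values were seen. Ebf1, Six3 and Penk, genes of striatal development and identity, had 0.31, 0.29 and -0.48. Isl1, made by young striatal neurons, had 0.18, while Ppp1r1b (DARPP-32), of maturing ones, had -0.65 (edgeR quasi-likelihood adjusted p = 0.0796). Ppp1r1b passed with the title number as a block (edgeR quasi-likelihood adjusted p = 0.0217).

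Markers of olfactory epithelium and facial mesenchyme, where Dlx5 and Dlx6 are also made, were read as well. Their part in the members' levels was not tested. The 14 markers summed to 60.6 to 71.4 CPM in controls and 59.6 to 63.1 CPM in the mutant-labelled libraries. Of the 12 tested, 3 lay above 0 and none passed, and Foxi1 was at 0 in every library. Prrx2, of facial mesenchyme, had -0.65 and Msx1 had -0.19. Endothelial, blood and microglia markers, 11 in all, had a median of -0.05, and none passed. Cldn5 of endothelium had -0.07, the globins Hba-a1 and Hbb-bt -0.27 and -0.22, and P2ry12 of microglia -0.30. They summed to 768 to 1278 CPM in controls and 750 to 983 CPM in the mutant-labelled libraries, with the highest value in control replicate 1.

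Over the 6 libraries Dlx1, Dlx2 and Gsx2 varied together, with Pearson r of 0.94 for Dlx1 and Dlx2, 0.89 for Dlx1 and Gsx2 and 0.91 for Dlx2 and Gsx2 on log2 CPM. Dlx5 did not follow them, with r of 0.24, 0.32 and -0.08, and r was 0.02 for Dlx5 and Dlx6 despite their shared locus. Dlx6 lay between, at 0.58 to 0.71 with Dlx1, Dlx2 and Gsx2. These values describe 6 libraries that also share depth, title number and group, and no test was made on them.

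The 6 genes most like the mean of the 5 members, among 10177 genes at 10 CPM or more, were Pno1 (r = 0.998), Olig2 (0.995), Gpc4 (0.993), Six3 (0.991), Rxra (0.989) and Cep41 (0.987). The mean was of log2 CPM with no scaling per gene, so Gsx2, which varied most (-0.26 to 0.76 from its control mean), counts most in it. Olig2 and Six3 are transcription factors on the list of ventral partners. Six3 stood at 40.7, 43.5 and 47.8 CPM in controls and 44.1, 57.9 and 59.97 CPM in the mutant-labelled libraries, and Olig2 at 19.5, 20.7 and 24.2 against 21.9, 26.9 and 30.2 CPM. In both, as in Dlx2, mutant replicate 1 lay within the control range. An r above 0.9 was found for 173 genes, 1.7% of those compared, and none of the 6 passed an FDR of 0.05.

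The authors' deposited table lists 369 genes of their own comparison, up to an FDR of 0.0994, and none of the 5 members is among them. Of the 116 genes of the lists used here, 17 appear in the authors' deposited table, 13 of them higher and 4 lower. The split of all 369 genes by direction was not counted, nor was their share of the genes the authors tested. These counts thus have no share over all genes beside them. The 4 lower genes, which have the lowest FDR of the 17 in the authors' deposited table, are Eomes (-0.67), Ppp1r1b (-0.66), Neurod1 (-0.58) and Tfap2c (-0.59), with the log2 fold change in parentheses. Among the higher ones in the authors' deposited table are Ptch1 (0.41), Vax1 (0.50), Erbb4 (0.44), Sp9 (0.34), Sp8 (0.38) and Nkx2-1 (0.38), the last at an FDR of 0.0528.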

How the data were processed

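RNA from mouse forebrain at E14.5 was extracted with DNase digestion and made into unstranded TruSeq RNA v2 libraries, per the labels' protocols. The submitters' processing notes list, in no order, the build GRCm38 (mm10), HTSeq 0.5.4p5, TopHat2 2.0.9, and edgeR 3.4.2. The authors deposited estimated counts per gene, not scaled between libraries, of which 22.7% to 24.9% are not whole numbers, and no source used here names the tool behind them. Their other deposited table gives log2 fold changes, a likelihood-ratio score, and a p-value with its FDR.

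Gene identifiers were matched without version to symbols (99.19% of 34866). Estimated counts were rounded. All genes passing filterByExpr (minimum count 10, minimum total 15) entered one edgeR 4.0.16 quasi-likelihood fit in R 4.3.3 (TMM factors, robust, Benjamini-Hochberg, FDR 0.05), checked on simulated counts. Standard errors and 95% intervals come from its F statistic. CPM uses TMM-scaled library sizes, and log2 CPM a prior count of 2. Ratios used a pseudocount of 0.5 counts. The fit had a biological coefficient of variation of 12.3% and a median standard error of 0.125.

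Groups follow the Sap130 genotype in the labels, and replicates were numbered in accession order, so the numbers pair no samples. Named genes were the members, Dlx3 and Dlx4, called genes and up to 4 others by p in each list, and the 6 genes most alike by r, and some genes are not reported here. Gsx1, Gad1, Gad2, Cxcr4, Ackr3, Emx1, Pax6, Pak3, Isl1, Foxi1 and, among repressed genes, Otp and Olig2 were named for their known role after their values were seen. The members, lists and tests were chosen with earlier results of these data known. Alternatives were other scalings, tests (DESeq2 1.42.0, limma 3.58.1), filters, a block, a subset and left-out libraries. The homeobox was located by translating each transcript.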

Additional observations from a re-analysis of the deposited data

Results flagged for a closer look

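Gsx2 was higher in the mutant-labelled libraries of one title number and not of the other. The log2 ratio of mutant-labelled libraries to controls was -0.001 in SPF-539, which is level, and 0.595 in SPF-552, where both mutant-labelled libraries lay above both controls. SPF-539 holds 1 library of each group, and the difference was not tested.

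Of the 5 log2 ratios of 2 genes within a library, 4 also had differences of opposite sign between the title numbers. The difference, mutant-labelled libraries minus controls, was 0.54 in SPF-539 and -0.23 in SPF-552 for Gad2 over Dlx2, and 0.16 and -0.06 for Dlx1 over Dlx2. It was 0.02 and -0.22 for Dlx5 over Dlx2, and -0.07 and 0.26 for Gsx2 over Dlx2. The values of 0.02, -0.06 and -0.07 are smaller in size than the SD among controls of the same ratio, so they are close to level. All 4 ratios are over Dlx2, whose own log2 ratio of mutant-labelled libraries to controls was 0.07 in SPF-539 and 0.34 in SPF-552. They are thus not 4 separate observations. These contrasts between title numbers were not tested either.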

How the results depend on the processing

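Each of the 5 members kept a positive log2 fold change in all 16 alternatives, 80 results in all, and these passed an FDR of 0.05 in 4 of them. These were SPF-552 alone (Dlx1 0.28, Dlx2 0.34) and the fit without mutant replicate 1 (0.35 and 0.36). The cause was not tested. Leaving out 1 library gave ranges of 0.2 to 0.35 for Dlx1, 0.18 to 0.36 for Dlx2, 0.05 to 0.15 for Dlx5, 0.15 to 0.32 for Dlx6 and 0.26 to 0.71 for Gsx2. The count of genes passing, 21 in the main fit, was 194 with DESeq2, 11 with limma-voom, 150 with edgeR's likelihood-ratio test, 130 with no filter and 56 at an FDR of 0.1. It was 116 with the title number as a block, 564 in SPF-552 alone and 3 to 330 on leaving out 1 library, the 330 without mutant replicate 1. In SPF-552 alone the difference in log2 ratio was -0.06 for Dlx1 over Dlx2 (0.02 over all libraries) and -0.23 for Gad2 over Dlx2 (0.03). The other ratio results moved by less than the spread between replicates. On leaving out 1 library the ratio differences ranged from 0.03 to 0.38 (Gsx2 over Dlx2), -0.26 to -0.06 (Dlx5 over Dlx2), 0.02 to 0.27 (Dlx6 over Dlx5), -0.04 to 0.04 (Dlx1 over Dlx2) and -0.1 to 0.11 (Gad2 over Dlx2). The labels number no replicates, and the title number, which both groups share, served as the block above. With 3 libraries a group and a standard error near 0.10 for Dlx1 and Dlx2, differences of the size seen for these genes did not reach an FDR of 0.05 over all 6 libraries, and Gsx2 rests on 95 to 177 estimated counts per library.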
